A study of Mus musculus with 24 samples.

Results

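The 7 haemoglobin genes of the mouse that give abundant mRNA in red blood cells were followed through 24 RNA-seq libraries of dissected archicortex (ARK), the medial edge of the cortex from which the hippocampus forms. They were chosen by name and function out of 51912 genes listed in the expression table. 3 of them are embryonic-type genes (*Hbb-y*, *Hbb-bh1* and *Hba-x*) and 4 are adult-type genes (*Hbb-bs*, *Hbb-bt*, *Hba-a1* and *Hba-a2*). The tissue was dissected without sorting, so each library holds the transcripts of whatever blood lay in the vessels of the ARK beside those of the neural tissue.

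The study compared embryos in which *Sox9*, a transcription factor of neural progenitors, was conditionally deleted with controls, and every group held 4 libraries on a mixed C57BL/6J;MF1 background. At E12.5 (embryonic days are counted from mating) there were Sox9fl/fl;Sox1Cre mutants (libraries A9 to A12) and Sox9+/+;Sox1Cre controls (A13 to A16). At E13.5 there were Sox9fl/fl;Sox1Cre mutants (A1 to A4) with Sox9+/+;Sox1Cre controls (A5 to A8), and Sox9fl/fl;NestinCre mutants (A17 to A20) with Sox9+/+;NestinCre controls (A21 to A24). All 6 groups, controls included, carried a Cre recombinase. *Sox1Cre* acts throughout the neural plate and *NestinCre* acts later in neural progenitors. Whether either driver acts in blood was not tested. The labels do not say how many embryos made up a library or which litters they came from. The p-values below therefore measure only the spread between these libraries, and age cannot be told apart from the litters and harvests that supplied each age.

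The libraries held between 16163560 and 49445219 reads on genes, with a median of 23016925. All values are read counts after the authors' DESeq2 normalisation for library size, called normalised read counts here. *Sox9* followed the labels. Its normalised read count at E12.5 was 2785, 1733, 2593 and 1928 in the mutants and 4391, 5265, 4237 and 4194 in the controls. At E13.5 it was 2828 to 3677 in the *Sox1Cre* mutants against 5218 to 5912 in their controls, and 2997 to 3369 in the *NestinCre* mutants against 4586 to 5636 in theirs. Every mutant library lay below every control library of its own comparison. The ARK itself was well represented, with mean normalised read counts over the 24 libraries of 15922 ± 3246 for *Lhx2*, 7412 ± 3723 for *Wnt8b* and 6767 ± 2738 for *Reln* (SD, n = 24). None of the 19 genes listed for ARK and cortical hem was at 0 throughout.

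Haemoglobin is a tetramer of α-type and β-type globin chains, each holding a haem group that binds oxygen. In the mouse, the first red cells arise in the yolk sac as a primitive wave that enters the blood with its nuclei and matures there, and these cells carry embryonic globins. Definitive red cells made in the fetal liver follow, lose their nuclei before they enter the blood and carry adult-type globins. The replacement of embryonic by adult-type globins is called haemoglobin switching, and within the primitive wave *Hbb-bh1* gives way to *Hbb-y*.

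The β-type genes lie in one cluster on chromosome 7, all on the minus strand. In the direction of transcription the cluster runs from *Hbb-y* (chr7:103851749-103853216), which makes the embryonic εy chain, through *Hbb-bh1* (chr7:103841637-103843164), which makes the embryonic βh1 chain, to the adult-type *Hbb-bs* (chr7:103826534-103828096) and *Hbb-bt* (chr7:103812524-103813996). The α-type genes lie on the plus strand of chromosome 11, in the order *Hba-x* (chr11:32276400-32278116), which makes the embryonic ζ chain, *Hba-a1* (chr11:32283511-32284465) and *Hba-a2* (chr11:32296489-32297298). Coordinates are those of GRCm38. Each of the 7 is a protein-coding gene of 3 exons. The files identify them as ENSMUSG00000052187 (*Hbb-y*), ENSMUSG00000052217 (*Hbb-bh1*), ENSMUSG00000052305 (*Hbb-bs*), ENSMUSG00000073940 (*Hbb-bt*), ENSMUSG00000055609 (*Hba-x*), ENSMUSG00000069919 (*Hba-a1*) and ENSMUSG00000069917 (*Hba-a2*).

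The proximal promoters of an embryonic and an adult-type gene from each cluster are shown because these genes moved in different ways between the ages. Each sequence is the 130 bases just before the RefSeq transcription start on GRCm38.p6, read 5′ to 3′ along the gene. *Hbb-y* is chr7:103853208-103853337 and *Hbb-bs* is chr7:103827929-103828058, both on the minus strand. *Hba-x* is chr11:32276470-32276599 and *Hba-a1* is chr11:32283542-32283671, both on the plus strand. The gene coordinates given above begin upstream of these RefSeq starts. The windows of *Hbb-bs*, *Hba-x* and *Hba-a1* therefore lie within those coordinates. Capitals mark matches, on either strand, to the letters of the CCAAT box, the CACCC box, the core site of the GATA factors, and the TATA-type elements spelled TATAAA or, in *Hbb-y*, spelled ATAAAA.
Hbb-y: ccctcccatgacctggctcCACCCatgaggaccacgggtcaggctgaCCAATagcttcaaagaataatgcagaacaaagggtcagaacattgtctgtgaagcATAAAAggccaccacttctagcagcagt
Hbb-bs: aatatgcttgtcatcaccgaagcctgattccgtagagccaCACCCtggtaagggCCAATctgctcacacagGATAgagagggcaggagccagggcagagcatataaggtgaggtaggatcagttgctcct
Hba-x: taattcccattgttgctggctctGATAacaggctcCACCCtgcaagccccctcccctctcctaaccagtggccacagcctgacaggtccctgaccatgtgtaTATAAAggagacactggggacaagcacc
Hba-a1: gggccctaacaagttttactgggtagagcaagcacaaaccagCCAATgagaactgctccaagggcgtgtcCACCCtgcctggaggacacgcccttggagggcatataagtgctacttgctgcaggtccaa

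RefSeq promoters matched 6 of the 7 genes, all but *Hbb-bh1*. CACCC, the core of the sites that KLF factors bind, was present in 6 of these 6 windows and in 33.7% of the 32851 RefSeq promoter windows of the same length. CCAAT stood in 5 of 6, against 22.4% of all windows, and *Hba-x* was the one without it. GATA, the core of the sites bound by GATA1, stood in 3 of 6 (*Hbb-bt*, *Hbb-bs* and *Hba-x*), against 31.7% of all windows. TATAAA lay from 28 to 23 bases before the start in *Hbb-bt* and *Hba-x*, and ATAAAA lay at that place in *Hbb-y*. The shares of all windows with these letters were 6.8% and 8.9%. Over the aligned windows the promoters of *Hba-a1* and *Hba-a2* were 95.5% identical, those of *Hbb-bs* and *Hbb-bt* 75.8%, those of *Hbb-bs* and *Hbb-y* 51.4%, and those of *Hba-a1* and *Hba-x* 48.9%. A match to these letters is a description of the sequence only.

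The embryonic-type genes were all lower at E13.5 than at E12.5. *Hbb-bh1*, the earliest β-type gene, had normalised read counts at E12.5 of 6854, 8055, 5023 and 13925 in the mutants and 4896, 7846, 4498 and 4819 in the controls. At E13.5 it had 205.4, 527.8, 391.7 and 81.2 in the *Sox1Cre* mutants and 2032, 332.5, 428.2 and 404.8 in their controls. The lowest library at E12.5 was thus above the highest at E13.5, and control A5 stood well above the other E13.5 *Sox1Cre* libraries. The 8 *NestinCre* libraries, all from E13.5, held 304.5 to 2190. In the *Sox1Cre* libraries the level was 17.2-fold lower at E13.5, a log2 difference of −4.11 (SE 0.45; adjusted p = 3.94e-06, limma on log2(normalised read count + 1)). This was the second most negative difference among the 16454 genes tested.

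*Hba-x*, the embryonic α-type gene, showed the next largest fall. It had 30181, 35266, 28102 and 47314 in the E12.5 mutants and 28397, 35922, 25631 and 26323 in the E12.5 controls. It had 2710, 7819, 4771 and 1555 in the E13.5 *Sox1Cre* mutants and 11644, 3154, 5438 and 5402 in their controls. The ages did not overlap, and the *NestinCre* libraries lay on the E13.5 side at 3247 to 14618. The log2 difference was −2.81 (SE 0.34; adjusted p = 7.96e-06, limma), a 6.99-fold lower level, and it ranked 22 from the most negative.

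*Hbb-y*, the main β-type gene of mature primitive red cells, fell less. Its normalised read counts were 77144, 85206, 89507 and 86778 in the E12.5 mutants and 84760, 95465, 77442 and 78852 in the E12.5 controls. They were 20272, 49623, 33365 and 13730 in the E13.5 *Sox1Cre* mutants and 60156, 22322, 33179 and 28502 in their controls. The E12.5 libraries lay close together and the E13.5 libraries were spread over a wide range, again without overlap. The log2 difference was −1.51 (SE 0.25; adjusted p = 0.000145, limma), or 2.85-fold lower. The *NestinCre* libraries held 21792 to 70633.

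The adult-type genes split by cluster, and their copies need care. The coding sequences of *Hbb-bs* and *Hbb-bt* differ at 1 of 441 aligned positions and those of *Hba-a1* and *Hba-a2* at 1 of 426. Of all 50-base stretches of coding sequence, 93.6% of those of *Hbb-bt* also occur in *Hbb-bs* and 87.8% of those of *Hba-a1* in *Hba-a2*. Over the whole transcript, untranslated parts included, the shares were lower, at 58.3% and 67.5%. Reads from the shared stretches cannot be assigned to 1 copy by their sequence, so the division of reads within each pair is uncertain, and the sums of the pairs are given first. The summed adult-type β level was 12170, 11924, 18123 and 7776 in the E12.5 mutants and 14614, 15186, 14113 and 13720 in the E12.5 controls. At E13.5 it was 23153, 22942, 24114 and 22472 in the *Sox1Cre* mutants and 23194, 22419, 27047 and 12903 in their controls. Control A8 was the one E13.5 *Sox1Cre* library inside the E12.5 range. The sum rose by a log2 difference of 0.74 (SE 0.19; adjusted p = 0.00505, limma), a test added after the values had been seen. *Hbb-bs* taken alone was 1.73-fold higher (log2 difference 0.79, SE 0.19, adjusted p = 0.00326), and *Hbb-bt* did not pass the threshold (0.57, SE 0.29, adjusted p = 0.143).

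The summed adult-type α level went the other way. It was 67975, 65013, 89781 and 61916 in the E12.5 mutants and 73426, 79621, 70397 and 70602 in the E12.5 controls. It was 35905, 62481, 53511 and 37406 in the E13.5 *Sox1Cre* mutants and 71652, 43406, 56414 and 34853 in their controls. Of these 8 E13.5 libraries, 6 lay below all E12.5 libraries, and A2 and A5 lay within the E12.5 range. The sum fell by 0.59 on the log2 scale (SE 0.15; adjusted p = 0.00565, limma). *Hba-a1* alone was 1.56-fold lower (log2 difference −0.64, SE 0.16, adjusted p = 0.00326), and *Hba-a2* did not pass (−0.49, SE 0.27, adjusted p = 0.172).

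**Figure D1:**
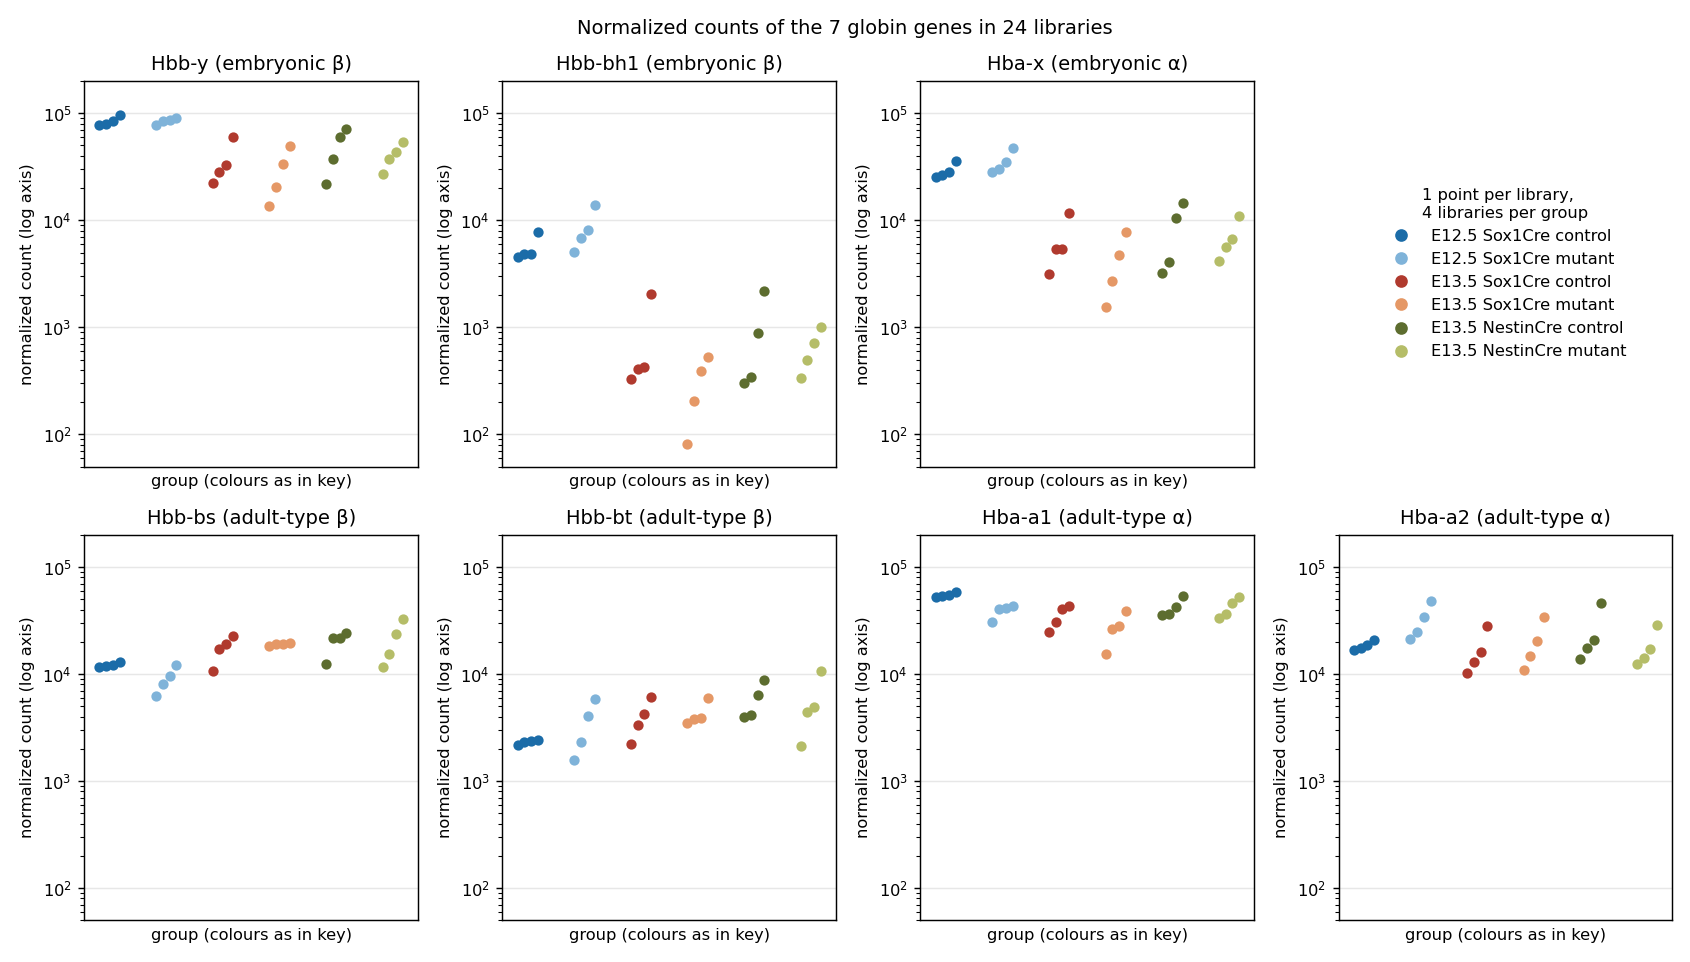
Normalised read count of each of the 7 globin genes in each of the 24 libraries, on a log axis, with libraries grouped by age, Cre line and genotype; each point is a library. *Hbb-y*, *Hbb-bh1* and *Hba-x* separate the E12.5 from the E13.5 libraries without overlap, and the 4 adult-type genes overlap between the ages. The share of all genes that separate the ages in this way was not counted.

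Of the 7 genes, 4 were lower at E13.5, 1 was higher and 2 did not pass. Between the same libraries 33.8% of all genes tested passed the threshold, 16.5% lower and 17.4% higher at E13.5, so passing it was common in itself. How many of all genes had no overlap between the ages was not counted. The median log2 difference over the 7 genes was −0.64, beside −0.01 over all genes tested. All 7 genes together took 0.895% ± 0.0663 of the reads of a library at E12.5 (SD, n = 8) and 0.541% ± 0.156 at E13.5 (SD, n = 16). In unsorted tissue, fewer red cells and less globin mRNA in each red cell cannot be told apart, and therefore the genes were next compared with each other within each library, where the amount of blood cancels.

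The ratio of embryonic to adult-type β mRNA, (*Hbb-y* + *Hbb-bh1*) over (*Hbb-bs* + *Hbb-bt*), separated the ages. It was 6.90, 7.82, 5.22 and 12.95 in the E12.5 mutants and 6.13, 6.80, 5.81 and 6.10 in the E12.5 controls. It was 0.884, 2.19, 1.40 and 0.615 in the E13.5 *Sox1Cre* mutants and 2.68, 1.01, 1.24 and 2.24 in their controls. The *NestinCre* libraries held 1.01, 3.99, 1.36 and 1.35 in mutants and 0.787, 3.47, 2.39 and 1.34 in controls. No E13.5 library reached the E12.5 range, but within E13.5 the ratio covered a wide span, and A1, A4 and A21 had more adult-type than embryonic β mRNA. In the *Sox1Cre* libraries the difference in mean log2 ratio was −2.34, or 5.06-fold lower at E13.5 (mean 0.46 ± 0.74 against 2.80 ± 0.40, SD, n = 8 each; exact permutation test within genotype, two-sided, p = 0.000408, the smallest that 4900 relabellings can give; 0.000544 adjusted over 4 ratios).

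The α-type ratio, *Hba-x* over (*Hba-a1* + *Hba-a2*), also fell, from a different starting point. It was 0.444, 0.542, 0.313 and 0.764 in the E12.5 mutants and 0.387, 0.451, 0.364 and 0.373 in the E12.5 controls. It was 0.0755, 0.125, 0.0892 and 0.0416 in the E13.5 *Sox1Cre* mutants and 0.163, 0.0727, 0.0964 and 0.155 in their controls. Embryonic α mRNA was thus the minor form already at E12.5, when embryonic β mRNA was the major one. The difference in mean log2 ratio was −2.22, or 4.66-fold lower at E13.5 (exact permutation test, p = 0.000408, 0.000544 adjusted over 4 ratios).

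Within the embryonic β-type genes, the share of *Hbb-bh1* fell against *Hbb-y*. The ratio of *Hbb-bh1* to *Hbb-y* was 0.0561 to 0.160 in the E12.5 mutants and 0.0578 to 0.0822 in the E12.5 controls. It was 0.00592 to 0.0117 in the E13.5 *Sox1Cre* mutants and 0.0129 to 0.0338 in their controls. The difference in mean log2 ratio was −2.60, or 6.07-fold lower at E13.5 (exact permutation test, p = 0.000408, 0.000544 adjusted over 4 ratios). The 3 ratios were also lower in controls and in mutants taken separately. In controls the log2 differences were −1.90 for β, −1.77 for α and −1.88 for *Hbb-bh1* to *Hbb-y*. In mutants they were −2.77, −2.67 and −3.33. Each of these 6 comparisons had an exact permutation p of 0.0286, the smallest that 4 against 4 allows, and 0.0381 after adjustment over 8 tests. With each control left out in turn, the *Hbb-bh1* to *Hbb-y* difference in controls ran from −2.20 to −1.73, and the exact permutation p was 0.0571 without any one of A13, A14, A15 and A16.

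**Figure D2:**
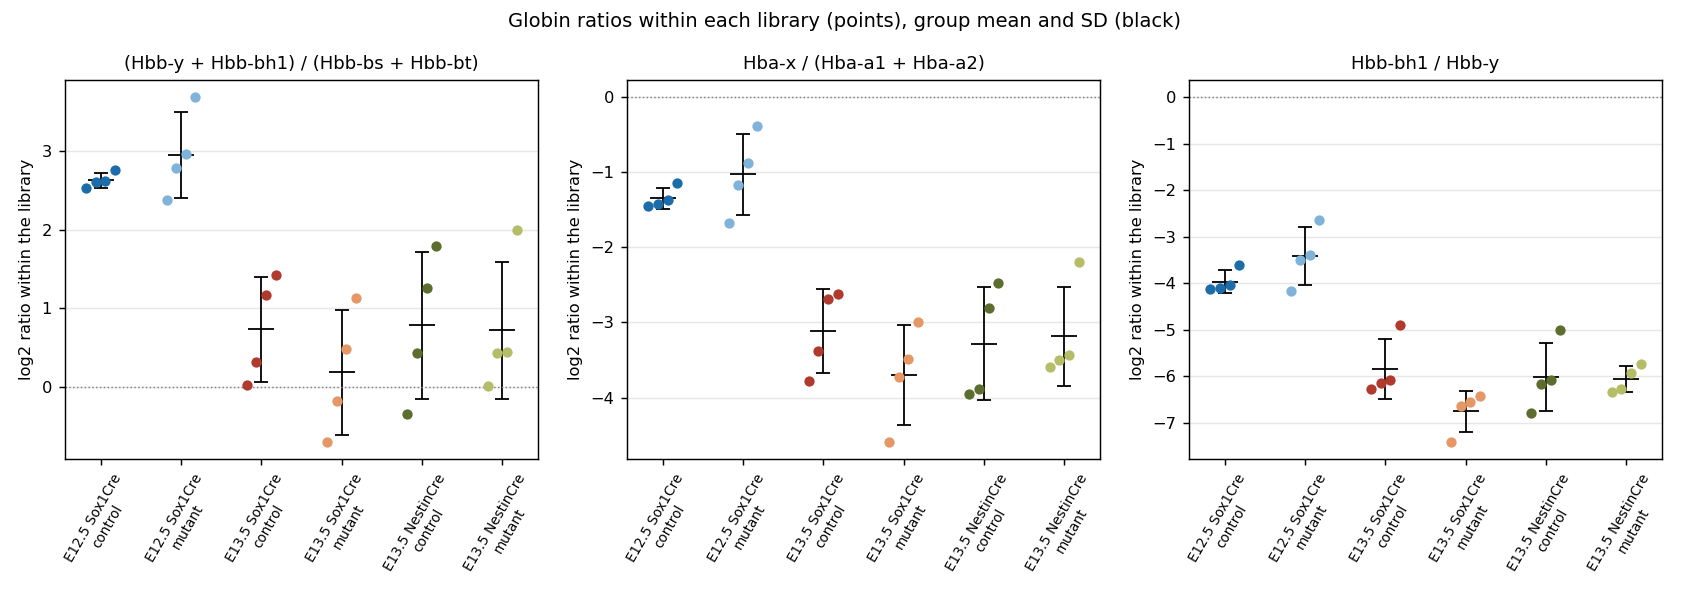
Log2 ratios within each library, by group: embryonic to adult-type β mRNA, *Hba-x* to adult-type α mRNA, and *Hbb-bh1* to *Hbb-y*; points are libraries and black bars are group means with SD (n = 4). All 3 ratios are lower in every E13.5 library than in any E12.5 library.

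The summed α-type and β-type levels stayed close to each other while their components changed. The ratio of all α-type to all β-type normalised read counts ran from 0.885 in A1 to 1.07 in A4 over the 24 libraries. The age difference of its log2 value was −0.01 (exact permutation test, p = 0.755), with −0.02 ± 0.08 at E13.5 and −0.01 ± 0.04 at E12.5 (SD, n = 8 each).

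Levels of different genes were compared per kilobase of transcript, using the length of a transcript annotated as principal for each gene. On this scale embryonic genes gave 87.3% ± 2.67 of β-type mRNA at E12.5 (84.3% to 93.0%, SD, n = 8) and 59.96% ± 12.3 at E13.5 (38.3% to 80.1%, SD, n = 16). *Hba-x* gave 26.3% ± 5.60 of α-type mRNA at E12.5 (19.3% to 38.0%) and 7.94% ± 3.19 at E13.5 (3.26% to 15.02%). The embryonic share of the β-type genes was therefore above that of the α-type genes in every library. The α to β ratio per kilobase was 0.924 ± 0.0444 at E12.5 and 0.969 ± 0.0520 at E13.5.

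**Figure D3:**
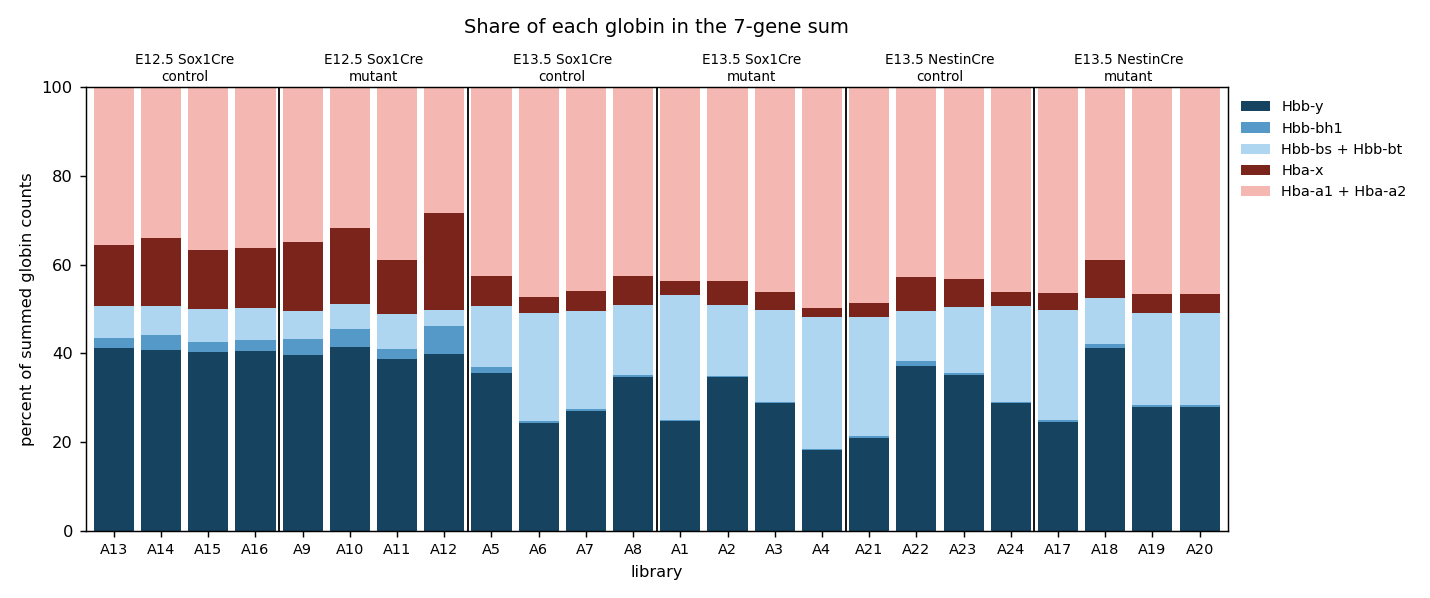
Share of *Hbb-y*, *Hbb-bh1*, *Hba-x* and the summed adult-type pairs in the summed normalised read count of the 7 genes in each library, as stacked bars that add up to 100%. The embryonic genes together took 53.2% to 67.99% of the sum in the E12.5 libraries and 20.4% to 50.5% in the E13.5 libraries.

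At E12.5 the order of levels per kilobase was led by *Hbb-y* (133324 ± 10112 per kilobase, SD, n = 8), above *Hba-a1* in 8 of 8 libraries. *Hba-a1* (67277 ± 13488) was above *Hba-a2* (45694 ± 19650) in 6 of 8, and *Hba-a2* was above *Hba-x* (40127 ± 9011) in only 3 of 8. These 3 neighbours therefore did not keep one order. *Hba-x* was above *Hbb-bs* (16821 ± 3775) in 8 of 8, *Hbb-bs* above *Hbb-bh1* (11402 ± 5128) in 7 of 8, and *Hbb-bh1* above *Hbb-bt* (4110 ± 1997) in 7 of 8. At E13.5 *Hbb-y* (60527 ± 26176, SD, n = 16) and *Hba-a1* (52343 ± 14615) could not be ordered, since *Hbb-y* was the higher in 7 of 16 libraries. *Hba-a1* was above *Hba-a2* (35801 ± 17609) in 13 of 16, and *Hba-a2* above *Hbb-bs* (30717 ± 8769) in 7 of 16. *Hbb-bs* was above *Hba-x* (8001 ± 4658) in 16 of 16, so these genes had changed places since E12.5. *Hba-x* and *Hbb-bt* (6953 ± 3200) were not ordered (8 of 16), and *Hbb-bh1* (1089 ± 998) was the lowest in 16 of 16.

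Libraries of one age differed in their embryonic to adult-type ratios, and the ratios of the clusters on both chromosomes differed together. What set these differences was not tested. Across the 8 E12.5 libraries the log2 α-type ratio followed the log2 β-type ratio with r = 0.982 (permutation p = 0.000149, adjusted 0.000298 over 4 relations) and rho = 0.976 (permutation p = 0.000397). Without the 2 libraries farthest from the median, r was 0.992. Across the 16 E13.5 libraries r was 0.965 (permutation p = 1e-05, the smallest that 100000 resamples can give, adjusted 4e-05) and rho was 0.929 (permutation p = 1e-05), with r = 0.944 without the 2 farthest libraries. Taken by Cre line, r at E13.5 was 0.972 in the 8 *Sox1Cre* and 0.962 in the 8 *NestinCre* libraries. No gene enters both ratios, but both come from the same blood of the same embryos. With only *Hba-a1* and *Hbb-bs* as adult-type genes r was 0.836 at E12.5 and 0.907 at E13.5.

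**Figure D4:**
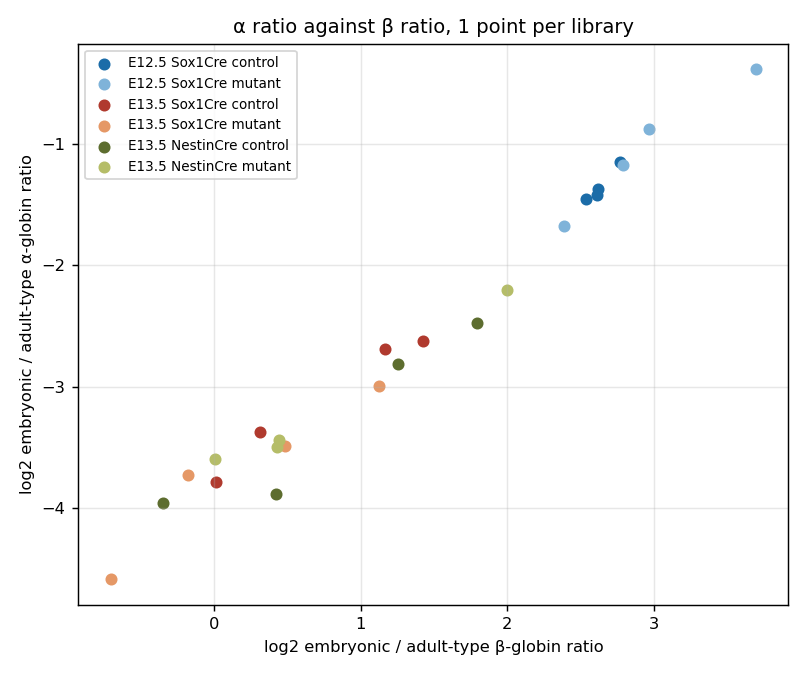
Log2 ratio of embryonic to adult-type α mRNA (*Hba-x* over *Hba-a1* + *Hba-a2*) against the log2 ratio of embryonic to adult-type β mRNA in each of the 24 libraries; each point is a library. The E12.5 libraries lie at the upper right and the E13.5 libraries at the lower left, and both ratios rise together within each age.

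The amount of globin mRNA was also set against the β-type ratio. At E13.5, libraries with more summed globin had a higher embryonic to adult-type β ratio (r = 0.586, permutation p = 0.0175, adjusted 0.0233; rho = 0.503, permutation p = 0.0491, adjusted 0.0655; r = 0.633 without the 2 farthest libraries, n = 16). The rank correlation did not pass after adjustment. By Cre line r was 0.705 in the *Sox1Cre* and 0.442 in the *NestinCre* libraries. At E12.5 r was 0.130 (permutation p = 0.736, n = 8), and it was 0.840 without the 2 farthest libraries, so the value rests on those libraries. The embryonic genes enter both measures.

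The question of whether *Sox9* deletion altered globin mRNA was addressed by comparing mutants with controls at each age and Cre line. None of the 7 genes passed the limma threshold in any of these comparisons. The share of all genes that passed was 0.723% for E12.5 *Sox1Cre*, 0.924% for E13.5 *Sox1Cre* and 0.0669% for E13.5 *NestinCre*. For *Hbb-bh1* the log2 differences of mutants from controls were 0.55 (SE 0.63; adjusted p = 0.745), −1.27 (SE 0.63; adjusted p = 0.449) and −0.19 (SE 0.63; adjusted p = 1). With each library left out, the *Hbb-bh1* difference ran from 0.28 to 0.77 at E12.5 and from −1.64 to −0.67 for E13.5 *Sox1Cre*. None of the 7 passed the limma threshold for the difference between the age changes of mutants and controls either, where 0% of all genes passed. That count of 0 was from limma, with 1217 genes at an unadjusted p under 0.05, and edgeR gave 0 and DESeq2 20.

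Ratios within a library were compared as well. The β and α ratios did not pass in any genotype comparison, and their log2 differences of mutants from controls lay between −0.58 and 0.33. With each library left out, the E13.5 *Sox1Cre* difference ran from −0.86 to −0.25 for β and from −0.82 to −0.29 for α. The E12.5 difference then ran from 0.080 to 0.52 for β and from 0.11 to 0.54 for α. The *Hbb-bh1* to *Hbb-y* ratio at E13.5 was below all controls in all 4 *Sox1Cre* mutants, with a log2 difference of −0.91 (exact permutation test, p = 0.0286, the smallest possible, 0.343 adjusted over 12 tests), which failed the correction. Without control A5 it was −0.59, and the largest exact permutation p without 1 library was 0.0857. At E12.5 the same ratio was 0.54 higher in the mutants (exact permutation test, p = 0.171), with overlapping groups, and in the *NestinCre* libraries it was −0.05 (exact permutation test, p = 0.886). The change of this ratio with age was thus a larger fall in mutants, by a log2 difference of −1.45 (exact permutation test of the difference with genotypes relabelled within age, p = 0.00571, 0.0457 adjusted over 8 tests). It ranged from −1.69 to −1.13 as each of the 16 libraries was left out, with a largest exact permutation p of 0.0171, but the adjusted p was then 0.05 or more in 13 of the 16 cases (up to 0.137). With the percent share of *Hbb-bh1* in place of the log2 ratio, the exact permutation p was 0.0212 and the adjusted p 0.170, so the call after adjustment was lost there too. The same difference for the β ratio was −0.87 (exact permutation test, p = 0.149) and for the α ratio −0.90 (exact permutation test, p = 0.0914), neither of which passed. The labels name no litters, so litter and genotype cannot be told apart here.

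The remaining genes of the clusters were scarce. *Hbb-bh0*, a β-type pseudogene beside *Hbb-y*, had 28.6 ± 17.8 at E12.5 (SD, n = 8) and 11.7 ± 7.42 at E13.5 (SD, n = 16), with a log2 difference of −1.50 in the *Sox1Cre* libraries (SE 0.44; adjusted p = 0.0107, limma). *Hbq1b*, a θ-type gene of the α cluster, had 33.2 ± 9.22 and 12.6 ± 7.36, with a log2 difference of −1.50 (SE 0.35; adjusted p = 0.00207). Both followed the direction of *Hbb-y*. *Hbb-bh2* never exceeded 2.27, and *Hbq1a* was above 0 in 5 libraries. *Hbb-bh3* had 0 reads in all 24, and a count of 0 in a single library allows an expected count of up to 3 reads there (one-sided 95% Poisson limit, counting error only). *Hba-ps4*, an α-type pseudogene on chromosome 17 and so outside both clusters, was above 0 in 1 library. Of the other globins outside the clusters, *Cygb*, cytoglobin, went the other way, with 217.5 ± 59.3 at E12.5 and 326.2 ± 58.2 at E13.5 (log2 difference 0.69, SE 0.16, adjusted p = 0.00204). *Adgb* did not pass, *Mb*, myoglobin, never exceeded 11.1, and *Ngb*, neuroglobin, never exceeded 2.13.

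Most membrane genes of red cells fell between the ages. Of 14 such genes, 13 were lower and 1 was higher at E13.5, with a median log2 difference of −2.41. Of all genes tested, 16.5% were lower and 17.4% were higher. The log2 difference was −3.44 for *Rhag* (Rh-associated glycoprotein), −3.28 for *Ermap*, −3.10 for *Rhd*, −2.75 for *Icam4* and −2.72 for *Kel* (the Kell blood group protein). It was −2.63 for *Epb42* (protein 4.2) and −2.38 for *Slc4a1* (the anion exchanger band 3), with adjusted p from 2.74e-05 to 0.000181 over these 7 (limma). The normalised read count of *Rhag* was 95.2 to 164.4 at E12.5 and 2.84 to 32.3 in the E13.5 *Sox1Cre* libraries, with no overlap. The gene that rose was *Aqp1* (log2 difference 2.03), a water channel of red cells that the choroid plexus makes as well. *Epb41*, the most abundant of the list, is also expressed widely outside blood.

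Other erythroid genes and genes of haem synthesis were also mostly lower. Of 18 other erythroid genes tested, 12 were lower, 2 were higher and 4 did not pass, with a median of −0.88. The shares over all genes tested were 16.5% lower and 17.4% higher, here and for haem synthesis. *Hemgn* (hemogen) had a log2 difference of −3.81 (adjusted p = 7.79e-05, limma), *Cldn13* −2.93, *Gata1* −2.72 (adjusted p = 0.00019), *Trim10* −2.35, *Nfe2* −2.05, *Klf1* −1.68, *Slc25a37* (mitoferrin 1, which brings iron into mitochondria) −1.34 and *Tal1* −1.11. *Gata1*, *Klf1* and *Tal1* are the transcription factors that drive red cell genes. Of 9 enzymes of haem synthesis, 7 were lower and 2 did not pass, with a median of −0.33. *Alas2*, the erythroid form of the first enzyme, had the largest difference at −1.01 (SE 0.16; adjusted p = 9.13e-05), and *Fech* (−0.53), *Cpox* (−0.42), *Ppox* (−0.33), *Alad* (−0.22) and *Urod* (−0.21) followed. These last enzymes are used by all cells.

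**Figure D5:**
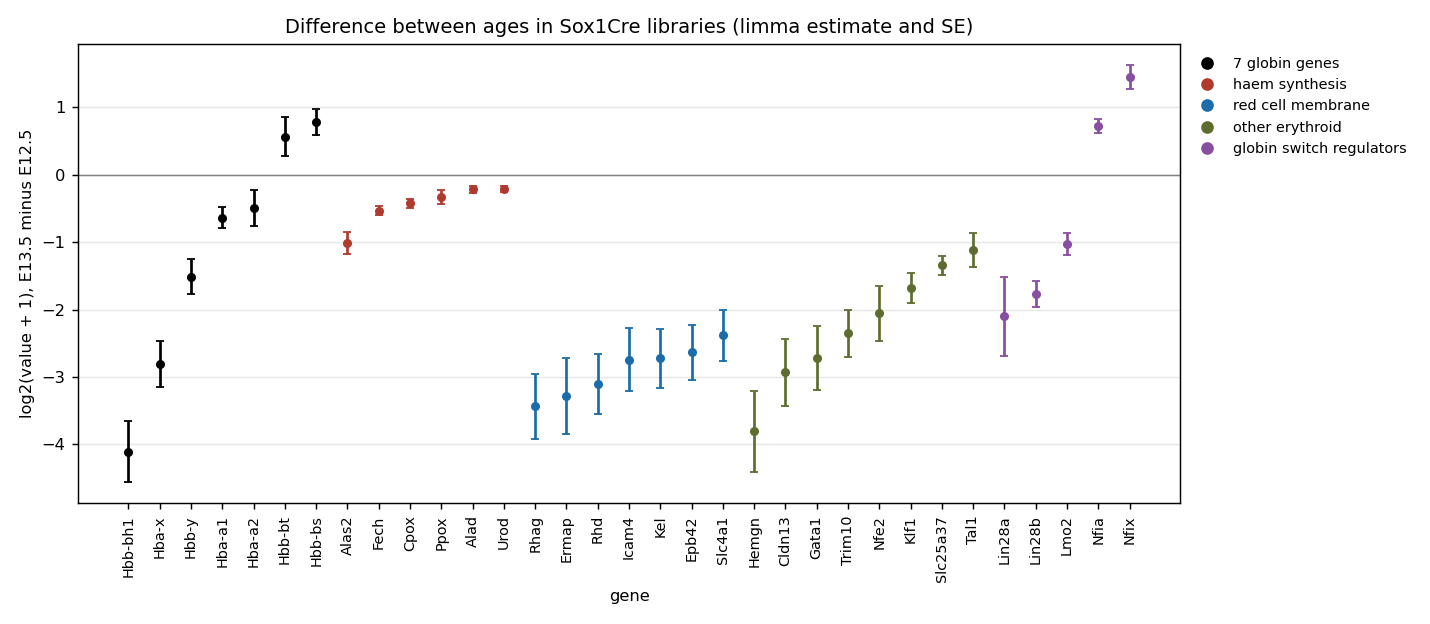
Log2 difference between E13.5 and E12.5 in the *Sox1Cre* libraries for the 7 globin genes and for named genes of 4 red cell lists, as limma estimates with SE bars on log2(normalised read count + 1). *Hbb-bh1* at −4.11 lies beside *Hemgn* at −3.81 and *Rhag* at −3.44, while the adult-type globins lie between −0.64 and 0.79.

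Of 28 genes known as regulators of globin switching, 15 were lower, 6 were higher and 7 did not pass, with a median of −0.26. Beside this, 16.5% of all genes tested were lower and 17.4% were higher. Beside *Gata1*, *Klf1* and *Tal1*, the log2 difference was −2.10 for *Lin28a* (SE 0.59; adjusted p = 0.00879), −1.76 for *Lin28b* (adjusted p = 3.94e-06) and −1.02 for *Lmo2*. The RNA-binding LIN28 proteins mark early developmental stages in many tissues. *Lin28a* was near the limit of detection, at 0 to 7.53 in the E13.5 *Sox1Cre* libraries. *Nfix* (1.45) and *Nfia* (0.72), factors of the nuclear factor I family, were higher at E13.5. *Chd4*, the most abundant of the list, had a mean of 23382 ± 1101 (SD, n = 24). *Bcl11a*, a repressor of embryonic β-type genes, was also higher (log2 difference 0.59, SE 0.11, adjusted p = 0.00038), and *Sox6*, its partner, did not pass (0.16, adjusted p = 0.0597). These 2 were picked after their values had been seen. *Nfix*, *Nfia*, *Bcl11a* and *Sox6* are expressed by neural cells of the cortex too, and these libraries do not show in which cells their transcripts arose. Between genotypes, *Sox6* was lower in the *Sox1Cre* mutants at E12.5 (−0.54, adjusted p = 0.00392) and at E13.5 (−0.46, adjusted p = 0.0138).

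Markers of the other cells of vessels and of neighbouring tissue were examined beside the globins. For each list, the shares to compare with are those of all genes tested, 16.5% lower and 17.4% higher at E13.5. Of 17 endothelial genes, 2 (*Slco1a4* and *Mfsd2a*) were higher, 1 (*Sox18*) was lower and 14 did not pass, with a median of −0.07. Their summed normalised read count was 12844 ± 2243 at E12.5 (7708 to 15011, SD, n = 8) and 12932 ± 2186 at E13.5 (6558 to 15789, SD, n = 16), led by *Kdr*. The ranges of the endothelial sum overlapped between the ages. The globin sum ran from 192079 to 234040 at E12.5 (n = 8) and from 75244 to 189785 at E13.5 (n = 16). The 2 sums were not tested against each other. *Mfsd2a* was also lower in the *Sox1Cre* mutants at both ages (−0.57, adjusted p = 0.0178, and −0.59, adjusted p = 0.0113). Of 8 pericyte genes 2 were higher and 1 was lower, with sums of 9230 ± 894 and 8649 ± 913, led by *Notch3*. Of 13 macrophage genes 1 was higher (*Lyz2*) and 1 lower (*Pf4*), with sums of 2907 ± 472 and 2805 ± 507, led by *Mrc1*.

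All 8 platelet and megakaryocyte genes were lower at E13.5, with a median of −1.90, where 16.5% of all genes tested were lower and 17.4% higher. Their sum was 890.7 ± 187.8 at E12.5 (676.1 to 1213) and 332.1 ± 121.0 at E13.5 (160.5 to 605.2), led by *Itgb3*, *Itga2b* and *Pf4*, and the ages did not overlap. Of 10 meningeal genes 4 were higher and 3 lower, with sums of 42679 ± 7369 and 36605 ± 7580, led by *Col3a1*. Of 8 choroid plexus genes 3 were higher and none was lower, with sums of 28941 ± 9336 and 49550 ± 21773, led by *Ttr*. Of the 19 ARK and hem genes 10 were higher and 6 lower, with sums of 68415 ± 3169 and 72564 ± 4854. No marker gene of these lists was at 0 in all libraries. The part of these cell types in the globin differences was not tested.

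The genes whose level was most like that of summed globin included several red cell genes. Among 15537 genes with a mean of at least 10, *Alas2* had the highest correlation with the log2 sum of the 7 genes over the 24 libraries (r = 0.97), followed by *Tal1* (0.94), *Mmp11*, *Slc4a1*, *S1pr2*, *Epb42*, *Trim10*, *Blvrb* and *Pdzk1ip1* (0.93 to 0.92). After the group means were subtracted, *Alas2* (0.95), *Tal1* (0.89), *Bpgm* (0.89), *Fbln1* (0.88) and *Pdzk1ip1* (0.88) came first. *Alas2* makes the haem that globin binds, and *Bpgm* makes 2,3-bisphosphoglycerate, which lowers the oxygen affinity of haemoglobin. *Mmp11*, *S1pr2*, *Blvrb*, *Pdzk1ip1* and *Fbln1* were in none of the red cell lists. These are descriptions over libraries that share ages and depths.

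The division of reads between the near-identical adult-type copies differed among libraries of the same group. *Hba-a1* took 42.9% to 76.2% of adult-type α reads over the 24 libraries. The share was 42.9% to 47.5% in A1, A2, A10, A11 and A22, 60.7% to 65.8% in A5, A9, A12 and A17, and 70.3% to 76.2% in the other 15. *Hbb-bs* took 58.4% (A22) to 85.5% (A24) of adult-type β reads. What set these shares was not tested. The values of single adult-type copies given above, their calls, and the levels, shares and ratios per kilobase that include them, for which each copy was divided by its own transcript length, share this uncertainty. The sums of normalised read counts over both copies, and the ratios made from those sums, do not depend on the division within a pair.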

How the data were processed

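Archicortex was dissected and snap frozen, RNA was extracted with the RNeasy Plus Micro kit, and KAPA mRNA HyperPrep libraries were sequenced on an Illumina HiSeq. Per the study's methods and the submitters' processing notes, the authors trimmed reads with Trimmomatic 0.36, aligned them to GRCm38 with STAR 2.5.2a and counted them per gene with RSEM 1.2.31. The strand setting is not given in the sources used here. The deposited table holds 24 columns of counts divided by DESeq2 size factors, a signal with no log transform, for 51912 genes, of which 51633 had a symbol. Whole reads were recovered from the steps of the values (to within 0.001 of a read), and library totals and the count tests rest on them.

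The 7 globin genes and the 14 gene lists were chosen with earlier results of these data known. Of 171 listed genes, 166 matched a name in the table. *Hbb-b1*, *Hbb-b2*, *Hba-ps3*, *Ahsp* and *Rhex* did not match and were not analysed here. Genes named from the lists were the 3 with the highest mean or, in the 4 red cell lists, up to 8 with the largest age difference past the threshold, and some of these are not reported here.

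Levels were compared with limma 3.58.1 (R 4.3.3) on log2(value + 1), with 1 mean for each of 6 groups over all 24 libraries, trended eBayes and 18 residual degrees of freedom, for the 16454 genes that reached 10 in 4 or more libraries. P-values were two-sided and adjusted by Benjamini-Hochberg over all genes tested, with a threshold of 0.05. The age comparison averaged *Sox1Cre* mutants and controls. Ratios were compared by two-sided exact permutation tests computed with numpy 2.4.6, with Benjamini-Hochberg adjustment by scipy 1.17.1. The group fit was tested on simulated data. edgeR 4.0.16 and DESeq2 1.42.0 were run on the recovered reads as alternatives, beside other pseudocounts (0.5 and 5), other filters, robust eBayes, each comparison's libraries alone, single copies as adult-type genes and each library left out. Promoters were taken from RefSeq.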

Additional observations from a re-analysis of the deposited data

Results flagged for a closer look

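In groups of 4 libraries, 8 of 90 tests for a library standing apart from the others (Dixon's test) were past its 95% critical value, and chance alone gives about 1 in 20. *Hbb-bh1* was 7846 in control A14 at E12.5, where the other controls held 4498 to 4896, and its log2 ratio to *Hbb-y* was −3.61 there against −4.11 to −4.03. *Hbb-bh1* was 2032 in control A5 at E13.5, where the other *Sox1Cre* controls held 332.5 to 428.2, and its log2 ratio to *Hbb-y* was −4.89 against −6.28 to −6.07. The log2 ratio of *Hba-x* to adult-type α mRNA was −2.20 in *NestinCre* mutant A18 against −3.60 to −3.44 in the other mutants.

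The share of adult-type α reads assigned to *Hba-a1* was 43.7% in *NestinCre* control A22 against 71.1% to 72.5% in the other controls. It was 64.95% in *NestinCre* mutant A17 against 72.1% to 73.1%, and 60.7% in *Sox1Cre* control A5 at E13.5 against 70.3% to 71.4%.

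The age change of the log2 *Hbb-bh1* to *Hbb-y* ratio differed between *Sox1Cre* mutants and controls by −1.45 (exact permutation test, p = 0.00571, 0.0457 adjusted over 8 tests). The adjusted p was 0.05 or more in 13 of the 16 cases with 1 library left out (up to 0.137), and 0.170 with the percent share in place of the log2 ratio. The mutants were on average above the controls at E12.5 and below them at E13.5, and all 4 E13.5 mutants were below all 4 controls.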

How the results depend on the processing

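The age calls of the 7 genes kept their direction and their side of the threshold under every alternative and with each library left out. Over the alternatives the log2 age difference ran from −4.11 to −3.80 for *Hbb-bh1*, −2.81 to −2.62 for *Hba-x*, −1.51 to −1.38 for *Hbb-y*, −0.64 to −0.59 for *Hba-a1* and 0.74 to 0.80 for *Hbb-bs*. The α, β and *Hbb-bh1* to *Hbb-y* ratios by age also kept their direction throughout, but the last of these in controls had an exact permutation p of 0.0571 without any one of A13 to A16. No paired analysis was possible because the groups share no replicate numbers. The lowest value of any of the 7 genes in any library was 81.2, well above the filter of 10.

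Counts of genes called moved in comparisons of genotype. The number of genes called for the age by genotype difference was 0 with limma and 20 with DESeq2 (0 to 1 with each library left out). For E12.5 *Sox1Cre* it was 119, 76 with the comparison's own libraries and 294 with DESeq2 (50 to 139 with each library left out). For E13.5 *Sox1Cre* it was 152, 44 and 358 in the same order (90 without A3 to 510 without A1). For *NestinCre* it was 11, 5 with no filter, with a mean of at least 100 or with edgeR, 2 with edgeR scaled without the globins and 37 with DESeq2 (2 to 7 with each library left out). The cause was not tested.

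Single genes changed sign only where no call was made. *Hba-a1* in the age by genotype difference was −0.051 with copies summed (added after seeing the data). In the *NestinCre* comparison *Hbb-bs* was 0.061 with edgeR, 0.070 with edgeR scaled without the globins and 0.068 with DESeq2, and *Hba-a1* was 0.0028 and 0.00095 with the last 2. With each library left out, the age by genotype difference of *Hba-a1* ran from −0.081 to 0.36 and of *Hbb-bt* from −0.55 to 0.076. The E12.5 genotype difference of *Hbb-y* ran from −0.026 to 0.074. The E13.5 *Sox1Cre* difference ran from −0.046 to 0.32 for *Hbb-bs*, −0.070 to 0.51 for *Hba-a2* and −0.085 to 0.40 for *Hbb-bt*. The *NestinCre* difference ran from −0.47 to 0.098 for *Hbb-y*, −0.57 to 0.38 for *Hbb-bh1*, −0.25 to 0.25 for *Hbb-bs*, −0.41 to 0.32 for *Hba-x*, −0.12 to 0.12 for *Hba-a1* and −0.60 to 0.17 for *Hbb-bt*.

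With *Hbb-bs* and *Hba-a1* as the only adult-type genes, the E12.5 genotype difference of the α ratio was 0.77 (exact permutation test, p = 0.0286) and that of *NestinCre* −0.053. With *Hbb-bt* and *Hba-a2* alone, the E12.5 differences were −0.34 for β and −0.46 for α, and the *NestinCre* β difference was 0.072. With *Hbb-bh1* as the only embryonic β gene, the age by genotype difference of the β ratio was −2.26 (exact permutation test, p = 0.0351). With each library left out, the E12.5 genotype difference ran from 0.080 to 0.52 for the β ratio (exact permutation p = 0.0286 without A11) and from 0.0097 to 0.054 for α to β (exact permutation p = 0.0286 without A10). That of *NestinCre* ran from −0.49 to 0.28 for β, −0.23 to 0.37 for α, −0.31 to 0.28 for *Hbb-bh1* to *Hbb-y* and −0.043 to 0.025 for α to β. The *Hbb-bh1* to *Hbb-y* ratio ran from −1.05 to −0.59 for E13.5 *Sox1Cre* and from −2.20 to −1.73 for age in controls. The α to β ratio ran from −0.034 to 0.013 for age, −0.083 to 0.0099 for age in mutants, −0.0012 to 0.033 for age in controls and −0.070 to 0.023 for E13.5 *Sox1Cre*. The age by genotype difference of the α ratio ran from −1.14 to −0.61, and its exact permutation p was 0.0351 at the lowest.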
